A study of Homo sapiens with 4 samples.

Results

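The 44 genes described here encode the machinery that brings secretory and membrane proteins into the endoplasmic reticulum (ER), folds them there and removes those that misfold, together with the sensors of the unfolded protein response. They were taken by gene symbol from a list of genes with these roles, drawn up with earlier results of these data known, and were placed in 4 groups: 19 chaperones and disulfide isomerases, 4 stress sensors, 10 genes of ER-associated degradation and 11 genes of the translocon. The sensor group includes XBP1, a transcription factor that is not itself a sensor. All 44 were found among the 16878 genes of each table. PANC-1, an established human pancreatic cancer cell line, was transfected for 48 h with small interfering RNA (siRNA) against SIRT1, an NAD-dependent deacetylase, or with a control whose sequence the labels do not give. RNA-seq was done on 2 Control libraries and 2 siSIRT1 libraries of the same line, with no further allele or agent in either group. The labels do not say whether the libraries of a group came from separate cultures, so the p-values measure the spread between these libraries only, which may be technical.

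The siRNA that the study lists for SIRT1 has 19 bases and is shown because it defines the siSIRT1 group.
siSIRT1: GUGUCAUGGUUCCUUUGCA

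Proteins enter the ER through the Sec61 channel, where signal peptidase cuts off the signal peptide. Inside, the HSP70 chaperone BiP (gene HSPA5) and its cofactors, the lectins calnexin and calreticulin, and the disulfide isomerases fold the chain, and proteins that fail are sent back to the cytosol for degradation. When unfolded proteins build up, the membrane sensors IRE1 (ERN1), PERK (EIF2AK3) and ATF6 start a response that raises the transcription of many chaperone genes. The exocrine pancreas is known for a heavy secretory load, and BiP is a classical read-out of that response.

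SIRT1 itself was at 10.46 and 10.25 FPKM (fragments scaled by transcript length and library size) in Control, against 1.80 and 2.05 FPKM after siSIRT1, so that 18.6% of the Control level remained (log2 fold change -1.96, standard error 0.11, limma adjusted p 1.33e-05). The estimated depth ran from 8680000 to 9110000 reads per library. Of the markers fixed for the line, KRT8, KRT18, KRT19 and VIM were between 312.82 and 2745.12 FPKM, while KRT7 was at only 2.89 to 4.04 FPKM. The values of KRT8, KRT18 and KRT19 were higher in both siSIRT1 libraries than in both Control libraries, whereas VIM was at 2198.36 and 2048.59 FPKM (Control) against 1503.48 and 1426.62 FPKM (siSIRT1). PTPRC, PECAM1, PRSS1 and CPA1, which mark other cells, were at 1.29 FPKM or below, and COL3A1, a fibroblast collagen, was at 4.08 and 4.04 FPKM (Control) against 18.86 and 19.35 FPKM (siSIRT1). No values were found under the symbols CD3E and INS. Of 12191 genes averaging 1 FPKM or more, 37.1% passed limma's test at an adjusted p under 0.05, 24.0% higher and 13.1% lower in siSIRT1. Rises made up 64.8% of these calls as the values were deposited and 49.6% after median-of-ratios scaling.

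The ER genes did not move in 1 direction. Of the 43 that reached the filter, 14 rose and 6 fell, so that 32.6% were called higher and 14.0% lower, beside the 24.0% and 13.1% of all genes. The median log2 fold change (siSIRT1 minus Control, on the log2(FPKM + 1) scale) was 0.05, against 0.07 over all genes. Values of the groups did not overlap for 34 of the 43 genes (79.1%), against 69.0% of all genes. The summed FPKM of the 44 genes took 1.06% and 1.07% of the total in Control and 1.07% in both siSIRT1 libraries. Among calls, the largest rises were those of SEC61G, MANF, SDF2L1 and ERP44, and the largest falls those of ERN1, CALR and SPCS3. With median-of-ratios scaling 11 ER genes were higher and 8 lower, or 57.9% rises against 70% before. After removal of each library's trend on transcript length, which was chosen after seeing the data, 10 were higher and 12 lower. The same removal for the GC content of transcripts gave 11 higher and 11 lower. Both removals also brought the median of all genes from 0.07 to 0.00, so they rescaled the libraries as well. The number of calls was 20, but it was 12 without Control replicate 1 and 11 without Control replicate 2.

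**Figure D1:**
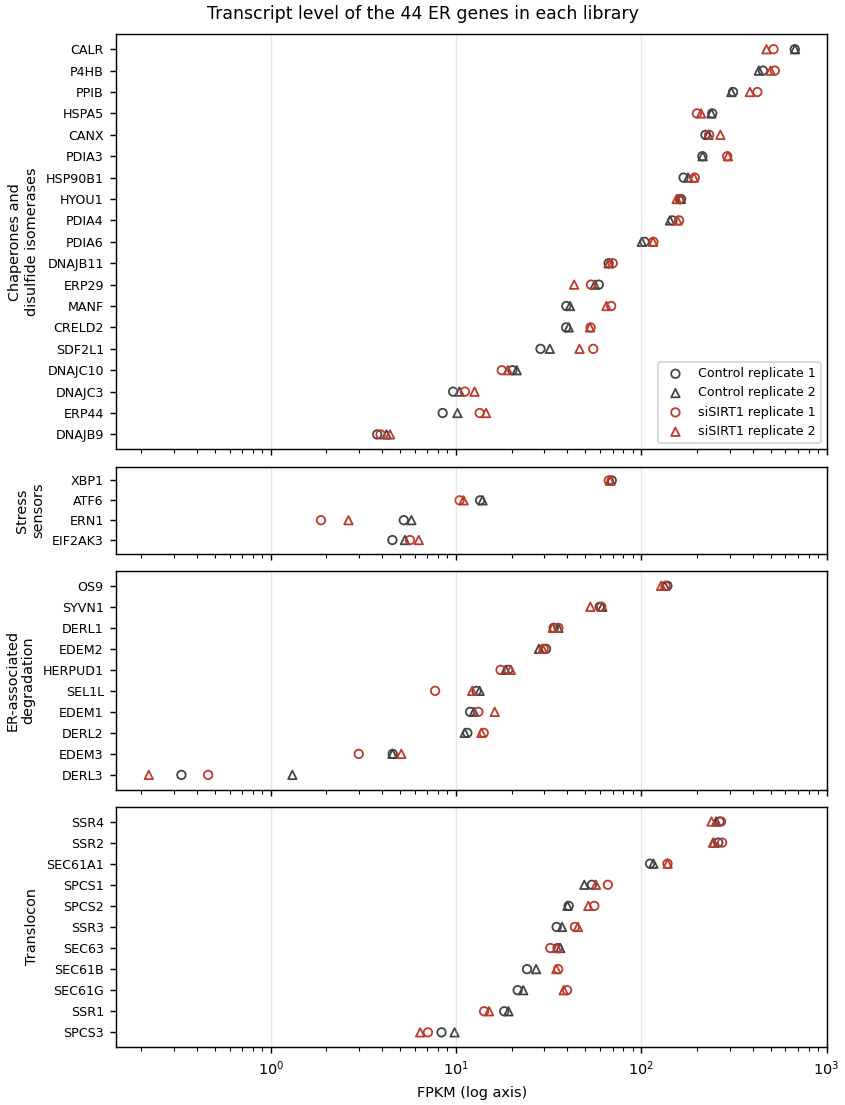
FPKM of the 44 ER genes (log axis) in the 2 Control libraries (grey) and the 2 siSIRT1 libraries (red), by role group, ordered within a group by the Control mean. CALR was the most abundant in Control at 673.98 and 676.03 FPKM, DERL3 the least at 0.33 and 1.31 FPKM, and the red and grey symbols of ERN1, SEC61G and MANF stand clearly apart.

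Several of these genes share a promoter element, shown here because genes that carry it differed in direction. The ER stress response element (ERSE), bound by ATF6 together with NF-Y, has the letters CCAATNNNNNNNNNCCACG. It was searched on both strands of the RefSeq promoter windows (GRCh38.p14, from 250 bases before to 50 bases after each start), which 40 of the 44 genes have. An exact match was found in 7 of these 40 genes (17.5%) and in 0.0916% of the 27305 genes with a window, or 0.0769% of all windows. ERSE-II (ATTGGNCCACG) was found in 3 of the 40 genes, against 0.0696% of all genes, and the UPRE (TGACGTGG), which XBP1 binds, in 4, against 0.927%. The motifs are known elements of the unfolded protein response, and the list was drawn up to hold genes of that response. The excess over all genes therefore follows from the choice of motifs and list, and tests nothing. HYOU1 holds both ERSE-II and a UPRE whose last bases overlap an ERSE-II match. In the lines below the motif is in capitals, read 5′ to 3′ in the direction of transcription, so that a match on the other strand is shown as its reverse complement. The lines show the called genes with a motif, and HSP90B1, which has 2 matches. All the bases shown lie before the start.
HSPA5 (chr9:125241371-125241429, minus strand): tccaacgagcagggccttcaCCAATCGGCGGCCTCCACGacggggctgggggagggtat
CALR (chr19:12938364-12938422, plus strand): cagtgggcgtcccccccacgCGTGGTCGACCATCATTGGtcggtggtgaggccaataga
HSP90B1, farther match (chr12:103930196-103930254, plus strand): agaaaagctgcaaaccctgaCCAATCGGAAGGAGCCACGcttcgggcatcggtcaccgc
HSP90B1, nearer match (chr12:103930301-103930359, plus strand): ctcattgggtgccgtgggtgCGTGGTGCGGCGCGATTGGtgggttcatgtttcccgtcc
PDIA6 (chr2:10812833-10812891, minus strand): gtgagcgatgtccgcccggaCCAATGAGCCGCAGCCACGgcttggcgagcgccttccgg
CRELD2 (chr22:49918534-49918592, plus strand): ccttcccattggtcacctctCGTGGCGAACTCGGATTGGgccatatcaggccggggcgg
SDF2L1, ERSE-II (chr22:21642094-21642144, plus strand): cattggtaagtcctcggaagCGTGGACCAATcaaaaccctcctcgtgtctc
SSR3, UPRE (chr3:156554139-156554186, minus strand): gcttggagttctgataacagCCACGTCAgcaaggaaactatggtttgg

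Among the 7 genes with an exact ERSE, CRELD2 and PDIA6 rose, HSPA5 and CALR fell, and HSP90B1, CANX and XBP1 did not pass. Their log2 fold changes ran from -0.45 to 0.40, with a median of 0.14. Of the ERSE-II genes SDF2L1 rose, while HYOU1 and HERPUD1 had log2 fold changes of -0.05 and -0.02 and did not pass. Of the UPRE genes SSR3 rose, and DNAJC10, HYOU1 and SSR4 did not pass. Over the 13 genes with any of these motifs 4 rose and 2 fell, and over the 27 with a window and none of them 9 rose and 4 fell. Of all genes tested, with or without a motif, 24.0% were called higher and 13.1% lower. The motif counts are descriptions, and binding was not measured.

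In the chaperone and isomerase group 8 of 19 genes rose and 2 fell (42.1% and 10.5% of those tested), with a median log2 fold change of 0.15. Of all genes tested 24.0% were called higher and 13.1% lower, with a median of 0.07. BiP, the HSP70 chaperone of the ER lumen, went down slightly. HSPA5 was at 241.79 and 239.17 FPKM (Control) against 199.80 and 210.40 FPKM (siSIRT1). It thus fell by 14.7% in a comparison without overlap (log2 fold change -0.23, SE 0.06, adjusted p 0.0150). Without the mean-variance trend its adjusted p was 0.0739, and HSPA5 also lost its call without Control replicate 1 and without Control replicate 2. HYOU1, an HSP110-type nucleotide exchange factor of BiP, was at 164.05 and 163.70 FPKM (Control) against 161.26 and 155.29 FPKM (siSIRT1) (adjusted p 0.525). HSP90B1, the HSP90 chaperone GRP94, was at 169.22 and 179.09 FPKM against 194.50 and 192.64 FPKM, a log2 fold change of 0.15 that did not pass (adjusted p 0.0721). The ERdj genes of this group, which encode J-domain partners of BiP, did not pass. DNAJB9 was at 3.76 and 4.22 FPKM (Control) against 3.92 and 4.41 FPKM (siSIRT1), which overlapped. DNAJB11, DNAJC3 and DNAJC10 had log2 fold changes of 0.04, 0.22 and -0.17. In other settings DNAJC10 passed as lower, under quantile, median-of-ratios and upper-quartile scaling and with the GC adjustment. HYOU1 passed as lower with the GC adjustment.

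MANF, SDF2L1 and CRELD2 rose, and are described side by side after their values were seen. MANF, a neurotrophic factor that binds BiP and stabilizes its complexes, was at 39.41 and 41.26 FPKM (Control) against 68.83 and 64.93 FPKM (siSIRT1). Both siSIRT1 libraries lay far above both Control libraries (log2 fold change 0.72, SE 0.06, adjusted p 0.000103). SDF2L1, which acts with the ERdj3 co-chaperone, went from 28.60 and 32.12 FPKM to 55.08 and 46.46 FPKM. Its log2 fold change was also 0.72 (SE 0.09, adjusted p 0.000615). CRELD2, an ER stress-inducible disulfide isomerase, went from 39.33 and 40.61 FPKM to 53.27 and 52.90 FPKM (log2 fold change 0.40, adjusted p 0.00131). The 3 genes have short transcripts, of 909, 825 and 1428 bases in the canonical annotation. After the length adjustment the log2 fold changes of MANF, SDF2L1 and CRELD2 were 0.51, 0.51 and 0.26, and all passed.

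Of the calnexin and calreticulin cycle, CALR fell and PDIA3 rose, while CANX did not pass. CALR encodes calreticulin, the soluble lectin that holds glycoproteins during folding and stores calcium. It was at 673.98 and 676.03 FPKM (Control) against 517.54 and 474.22 FPKM (siSIRT1). CALR fell by 26.5% (log2 fold change -0.45, SE 0.07, adjusted p 0.00136). Calnexin (CANX), the membrane-bound lectin, was at 222.29 and 230.39 FPKM (Control) against 232.46 and 267.40 FPKM (siSIRT1), and did not pass (adjusted p 0.181). PDIA3 (ERp57), the isomerase that both lectins recruit, went from 213.83 and 214.52 FPKM to 290.98 and 293.91 FPKM. It rose by 36.5% (log2 fold change 0.45, SE 0.06, adjusted p 0.000507). The Control mean of CALR was 675 ± 1.45 FPKM and that of siSIRT1 496 ± 30.6 FPKM (SD, n = 2), so the siSIRT1 libraries were less alike. Both differences held without each library in turn.

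With the processing as reported, the other disulfide and proline isomerases of the member group rose or did not pass. PPIB (cyclophilin B), a peptidyl-prolyl isomerase, went from 313.06 and 306.71 FPKM to 423.45 and 385.84 FPKM, a log2 fold change of 0.38 (adjusted p 0.00253). The fold change was 0.18 after the length adjustment and still passed (adjusted p 0.00652), but PPIB lost its call without Control replicate 2 (0.0575). ERP44, which retains oxidoreductases in the early secretory pathway, went from 8.48 and 10.19 FPKM to 13.43 and 14.54 FPKM (log2 fold change 0.54, standard error 0.11, adjusted p 0.00460). Its groups did not overlap. P4HB, the disulfide isomerase PDI, went from 453.98 and 431.10 FPKM to 526.27 and 498.95 FPKM (log2 fold change 0.21, adjusted p 0.0321), and PDIA6 from 104.23 and 100.62 FPKM to 116.32 and 115.78 FPKM (log2 fold change 0.18, adjusted p 0.0364). P4HB and PDIA6 did not pass after median-of-ratios scaling, where the adjusted p was 0.275 for P4HB and 0.317 for PDIA6, nor without Control replicate 1 or Control replicate 2. Both also did not pass under upper-quartile scaling, without the mean-variance trend, or with the length or GC adjustment. PDIA6 did not pass under quantile or equal-sum scaling either. PDIA4 was 0.13 higher on the log2 scale and did not pass (adjusted p 0.114). ERP29, a redox-inactive PDI homolog, was at 59.05 and 56.15 FPKM against 53.52 and 43.45 FPKM. It did not pass (log2 fold change -0.25, adjusted p 0.0666), and the range over the settings that keep all 4 libraries was 0.00291 to 0.191. ERP29 passed as lower under quantile, median-of-ratios, upper-quartile and equal-sum scaling. It also passed as lower with the replicate number as a block and with the length or GC adjustment.

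**Figure D2:**
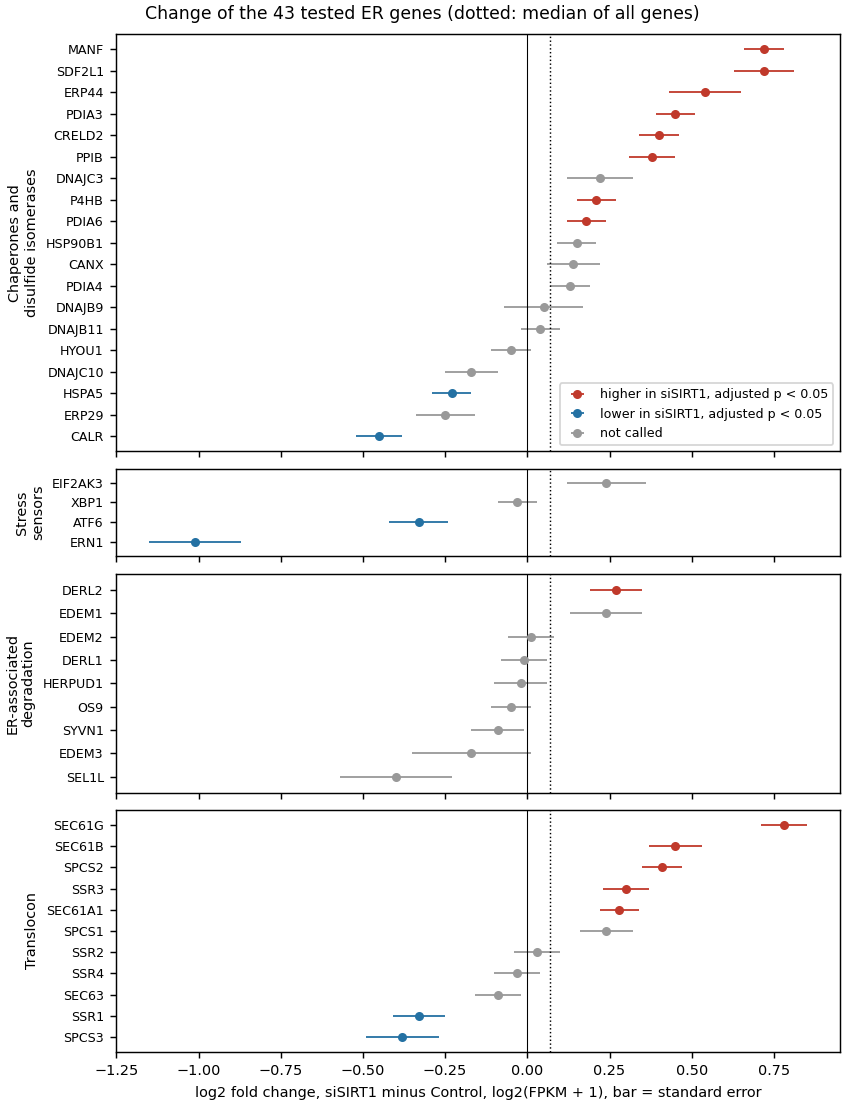
Log2 fold change (siSIRT1 minus Control, log2(FPKM + 1) scale) of the 43 tested ER genes with its standard error, by role group, in red or blue for genes higher or lower at an adjusted p under 0.05 and in grey otherwise. The dotted line is the median of all genes, 0.07. ERN1 stands alone at -1.01, and SEC61G, MANF and SDF2L1 lie at 0.78, 0.72 and 0.72.

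Of the 4 sensor genes 2 fell and 0 rose by limma (0 higher at an unadjusted p under 0.05). The ERN1 transcript showed the largest change of all the ER genes. ERN1 encodes IRE1, the kinase and endoribonuclease that splices XBP1 mRNA. It was at 5.23 and 5.75 FPKM (Control) against 1.87 and 2.63 FPKM (siSIRT1), or about 370, 414, 128 and 186 reads by the canonical transcript length. Every siSIRT1 value was below every Control value. ERN1 fell by 59% (log2 fold change -1.01, SE 0.14, adjusted p 0.00101). With all 4 libraries kept, other settings gave it adjusted p-values of 1.62e-05 to 0.0208. ATF6, the membrane-tethered transcription factor released by cleavage in the Golgi, was at 13.50 and 13.92 FPKM against 10.47 and 11.00 FPKM. ATF6 fell by 21.7% (log2 fold change -0.33, adjusted p 0.0166), a call that was lost without Control replicate 1 or without Control replicate 2.

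The other genes of the sensor group did not pass. EIF2AK3, encoding PERK, which phosphorylates eIF2 alpha, was at 4.54 and 5.31 FPKM (Control) against 5.65 and 6.30 FPKM (siSIRT1) (log2 fold change 0.24, adjusted p 0.156). XBP1, the transcription factor made from the message that IRE1 splices, was at 69.33 and 68.26 FPKM (Control) against 66.80 and 67.69 FPKM (siSIRT1). The difference in XBP1 was small, at -0.03 ± 0.06 (SE) on the log2 scale. After the length adjustment XBP1 was at -0.16 and passed as lower (limma adjusted p 0.0468). The tables pool isoforms, so spliced and unspliced XBP1 were not separated.

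In the degradation group 1 of the 9 tested genes rose (11.1%) and 0 fell by limma, with 1 lower at an unadjusted p under 0.05. The median log2 fold change was -0.02. Among all genes tested 24.0% were called higher and 13.1% lower, with a median of 0.07. DERL2, a derlin of the retrotranslocation machinery, went from 11.53 and 11.15 FPKM to 14.13 and 13.73 FPKM (log2 fold change 0.27, adjusted p 0.0312). DERL2 did not pass under any of the 4 other scalings, where its adjusted p reached 0.115, nor after the length or GC adjustment. It also lost its call without Control replicate 1, Control replicate 2 or siSIRT1 replicate 1. SYVN1 encodes HRD1, the ubiquitin ligase at the center of this pathway, and was at 59.66 and 61.68 FPKM (Control) against 60.89 and 53.15 FPKM (siSIRT1), which overlapped. SEL1L, its adaptor, was at 12.92 and 13.42 FPKM (Control) against 7.72 and 12.24 FPKM (siSIRT1), with siSIRT1 replicate 1 far below the rest. The log2 fold change of SEL1L was -0.40 (SE 0.17, adjusted p 0.0979). It was -0.10 without siSIRT1 replicate 1 and -0.70 without siSIRT1 replicate 2. SEL1L passed as lower with the length adjustment (limma adjusted p 0.0391), the GC adjustment (0.0405) and the replicate number as a block (0.0109).

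The mannosidase-like genes that mark glycoproteins for degradation differed in pattern. EDEM1 was at 11.93 and 12.51 FPKM against 13.22 and 16.19 FPKM, with no overlap and an adjusted p of 0.105. EDEM3 was at 4.56 and 4.55 FPKM (Control) against 2.99 and 5.07 FPKM (siSIRT1), so that the siSIRT1 libraries lay on either side of Control. EDEM2, HERPUD1, DERL1 and the lectin gene OS9 had log2 fold changes between -0.05 and 0.01, and all 4 overlapped between groups. After the length adjustment OS9 was at -0.15 and passed as lower (limma adjusted p 0.0374). HERPUD1, a stress-inducible scaffold of the HRD1 complex, was at 19.15 and 18.53 FPKM against 17.41 and 19.78 FPKM. DERL3 did not reach the filter at 0.33 and 1.31 FPKM (Control) against 0.46 and 0.22 FPKM (siSIRT1), about 9, 37, 12 and 6 reads. With no filter on low values DERL3 was tested and did not pass (log2 fold change -0.39, adjusted p 0.409).

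In the translocon group 5 of 11 genes rose and 2 fell (45.5% and 18.2%), with a median log2 fold change of 0.24. The shares over all genes tested were 24.0% and 13.1%, with a median of 0.07. The 3 Sec61 channel genes of the list rose. SEC61G, the gamma subunit, went from 21.53 and 23.07 FPKM to 39.82 and 38.15 FPKM. It was the largest rise among the ER genes (log2 fold change 0.78, SE 0.07, adjusted p 0.000107). SEC61B, the beta subunit, went from 24.19 and 27.08 FPKM to 35.64 and 34.84 FPKM (log2 fold change 0.45, adjusted p 0.00222). The pore-forming SEC61A1 went from 111.58 and 116.43 FPKM to 138.62 and 138.84 FPKM (log2 fold change 0.28, adjusted p 0.00528), a call lost without Control replicate 1 or Control replicate 2. The canonical transcripts of SEC61G and SEC61B have 425 and 564 bases. After the length adjustment SEC61G was at a log2 fold change of 0.49 and passed, and SEC61B was at 0.19 with an adjusted p of 0.0934. SEC63, the J-domain protein that couples BiP to the channel, was at 35.38 and 36.55 FPKM against 32.30 and 35.11 FPKM and did not pass (adjusted p 0.337).

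Within 2 complexes, subunits moved in opposite directions. The signal sequence receptor (TRAP) assists the channel with some signal peptides. Its gamma subunit SSR3 went from 34.95 and 37.38 FPKM to 43.86 and 45.52 FPKM (log2 fold change 0.30, adjusted p 0.00821), lost without Control replicate 1. Its alpha subunit SSR1 went from 18.22 and 19.21 FPKM to 14.19 and 15.10 FPKM (log2 fold change -0.33, adjusted p 0.0114), lost without Control replicate 1 or Control replicate 2. SSR2 and SSR4, the beta and delta subunits, overlapped between groups and had log2 fold changes of 0.03 and -0.03. After the length adjustment SSR2 was at -0.15 and passed as lower (adjusted p 0.0316), as did SSR4 at -0.28 (adjusted p 0.000716). In signal peptidase, SPCS2 went from 40.59 and 40.03 FPKM to 55.83 and 51.83 FPKM, or 0.41 on the log2 scale (adjusted p 0.00168). SPCS3, which is needed for its activity, went from 8.36 and 9.83 FPKM to 7.06 and 6.41 FPKM (log2 fold change -0.38, adjusted p 0.0276), and did not pass without siSIRT1 replicate 2, without Control replicate 2 or without a filter on low values. SPCS1 was at 54.20 and 49.30 FPKM against 66.06 and 56.98 FPKM (adjusted p 0.0503).

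**Figure D3:**
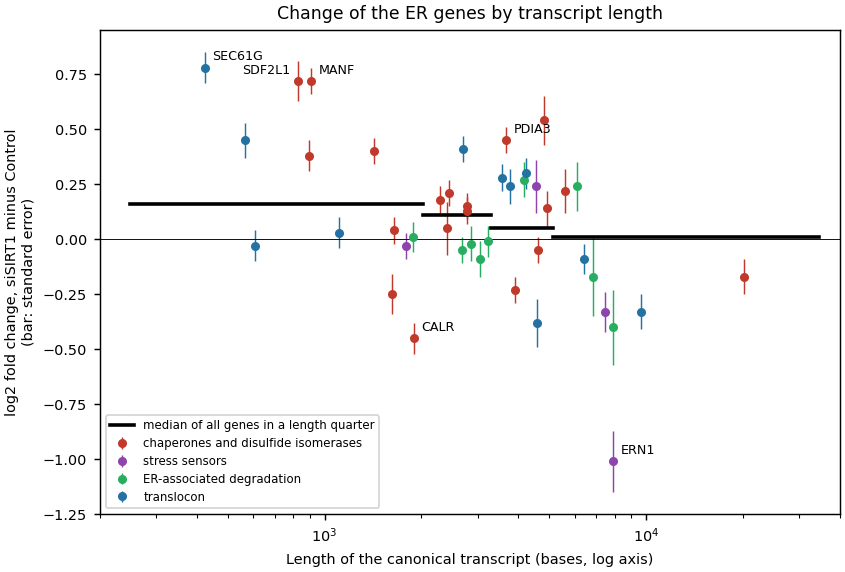
Log2 fold change (siSIRT1 minus Control) with its standard error against the length of the canonical transcript in bases (log axis) for the 43 tested ER genes, coloured by role group. Black bars give the median of all genes in 4 length classes of equal size, which went from 0.16 in the shortest to 0.01 in the longest. SEC61G, SDF2L1 and MANF are among the shortest and ERN1 among the long ones, while CALR is short and fell.

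Transcript length moved with these changes. Spearman's rho between length and log2 fold change was -0.43 across the 43 ER genes and -0.19 across 11996 genes, where the points share libraries and genes are not independent replicates. With all genes split into 4 length classes of equal size, of the 13 ER genes in the shortest class (249 to 2017 bases) 6 rose and 1 fell, where 35.9% of all genes were called higher and 11.4% lower. Of the 9 in the longest class (above 5124 bases) 0 rose by limma, with 1 higher at an unadjusted p under 0.05, and 3 fell, where 13.2% of all genes were called higher and 14.7% lower. The medians of all genes in those classes were 0.16 and 0.01, and those of the ER genes 0.04 and -0.17. In the classes between, from shorter to longer, the ER medians were 0.09 and 0.24. The ER medians thus showed no steady decline with length. The canonical lengths come from GENCODE and can differ from the RefSeq transcripts that the tables pool. No such relation appeared with the GC content of the transcripts, where rho was 0.02 in both sets. The part of length in the results was not tested beyond the length adjustment, which also brought the median of all genes from 0.07 to 0.00.

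Among the settings that keep all 4 libraries, 14 of the 20 calls held in every one, 10 of them rises and 4 falls. With each library left out in turn as well, 9 held. These were the rises of PDIA3, MANF, SDF2L1, CRELD2, ERP44, SEC61G and SPCS2 and the falls of CALR and ERN1. RefSeq lists pseudogenes that bear the symbol of 9 ER genes, among them HSPA5, PDIA3, SEC61G, SSR1 and SPCS2, and how reads shared with such copies were assigned is not given in the sources used here.

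**Figure D4:**
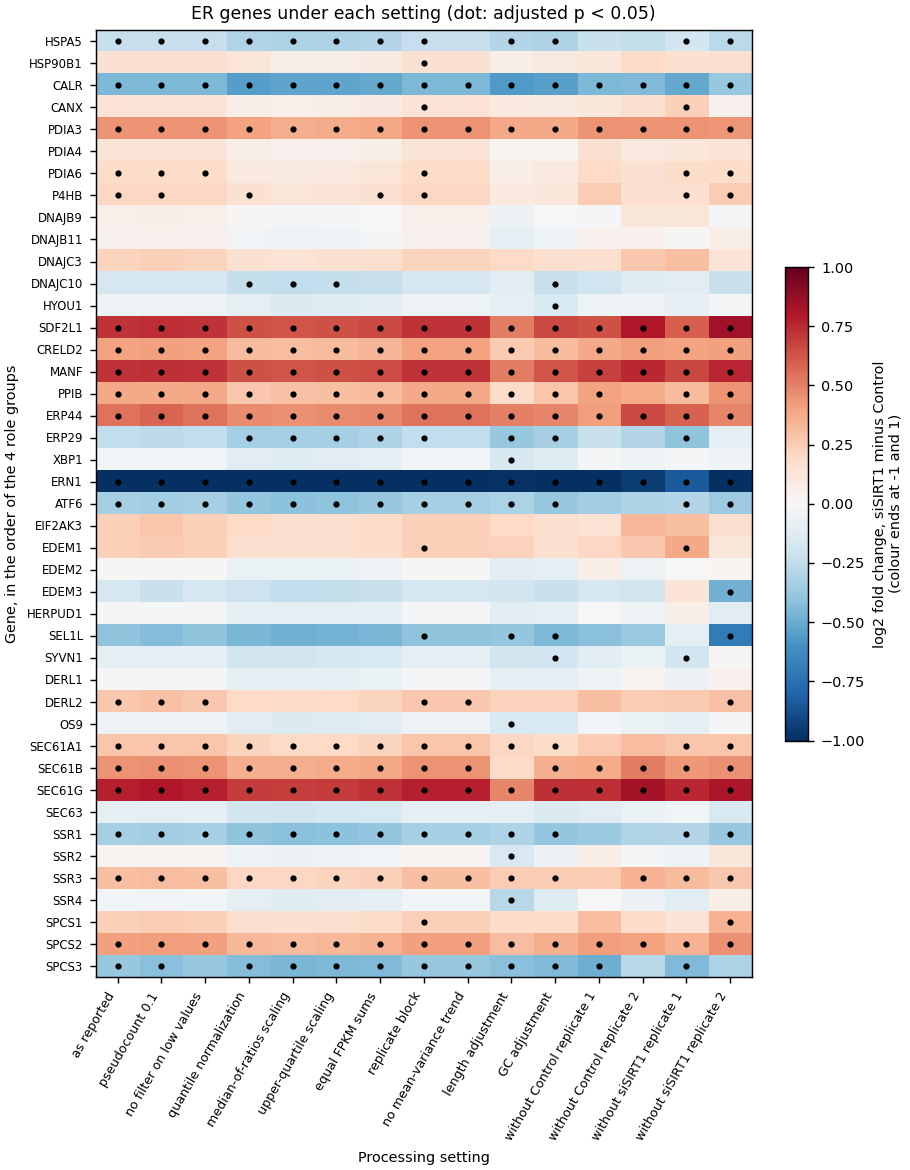
Log2 fold change (siSIRT1 minus Control) of the 43 tested ER genes, in role order from top to bottom, under the reported processing and each alternative, on a colour scale that ends at -1 and 1. A dot marks an adjusted p under 0.05. The rows of PDIA3, MANF, SDF2L1, CRELD2, ERP44, SEC61G, SPCS2, CALR and ERN1 carry a dot in every column.

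The other genes of the pathway, 130 in 7 lists by role, were read from the same fit. Of the 129 tested, 31 rose and 36 fell (24.0% and 27.9%, beside 24.0% and 13.1% of all genes), with a median log2 fold change of 0.02. The share of rises was that of all genes, which is also the background for each list here. In the PERK and ATF4 arm 6 of 8 genes fell and 0 rose by limma (0 higher at an unadjusted p under 0.05), with a median of -0.32. TRIB3, a pseudokinase induced by ATF4, went from 59.0 ± 0.212 to 18.4 ± 1.13 FPKM (SD, n = 2), or -1.63 on the log2 scale (adjusted p 2.82e-06). ASNS, asparagine synthetase, went from 87.8 ± 1.03 to 43.6 ± 0.608 FPKM (log2 fold change -0.99), and DDIT3, the stress factor CHOP, from 45.7 ± 3.69 to 27 ± 1.81 FPKM (log2 fold change -0.73, adjusted p 0.000274). Without Control replicate 1 or without Control replicate 2, 3 of the 8 were called.

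Of the ER membrane transcription factors and the proteases that release them, 5 of 7 fell and 0 rose by limma (0 higher at an unadjusted p under 0.05), with a median log2 fold change of -0.57. MBTPS1, the site-1 protease that cleaves ATF6, went from 53.5 ± 1.5 to 31.3 ± 1.27 FPKM (SD, n = 2), or -0.75 on the log2 scale (adjusted p 8.76e-05). CREB3L1, a relative of ATF6 that acts in secretory cells, went from 6.02 ± 0.318 to 3.53 ± 0.0495 FPKM, and CREB3L4 from 9.25 ± 0.856 to 5.96 ± 1.61 FPKM. CREB3L4 did not pass with no filter on low values (adjusted p 0.106), without Control replicate 1 or without siSIRT1 replicate 2.

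The folding and degradation factors outside the member list moved both ways. Of 36 other folding factors 7 rose and 13 fell (19.4% and 36.1%), with a median of -0.04. The largest falls were those of ERO1B, an oxidase that recharges PDI (log2 fold change -0.90, adjusted p 0.00101), TXNDC12 (-0.78) and QSOX2 (-0.74). The largest rises were those of MESD, a chaperone for LRP receptors (0.60), FKBP11 (0.53) and DNAJC1 (0.41), which did not pass with no filter on low values (adjusted p 0.0535). Of 27 other degradation factors 5 rose and 9 fell (18.5% and 33.3%). UFD1, a cofactor of the p97 ATPase, rose at a log2 fold change of 0.73, as did AUP1 (0.38) and TMUB1 (0.37). RHBDD1, DNAJB12 and FAF2 fell, with log2 fold changes of -0.68, -0.57 and -0.43. With no filter on low values 7 of these 27 were called instead of 14. TMUB1 did not pass there, after median-of-ratios scaling, without the mean-variance trend, without Control replicate 2 or without siSIRT1 replicate 1.

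For the signal recognition particle and targeting 7 of 18 genes rose and 3 fell (38.9% and 16.7%), with a median of 0.14. The particle subunits SRP9, SRP19 and SRP14 led the rises with log2 fold changes of 0.47, 0.38 and 0.37, and TRAM2, a translocon-associated protein, led the falls at -1.02 (adjusted p 2.48e-05), before HSPA13 at -0.86 and GET1 at -0.42. SRP19 lost its call without Control replicate 1 (adjusted p 0.0867), and GET1 without Control replicate 1 (0.0626), without Control replicate 2 (0.086) or with no filter on low values (0.0568). Of 11 tested subunits of the oligosaccharyltransferase, which attaches N-glycans, 5 rose (45.5%) and 0 fell by limma (0 lower at an unadjusted p under 0.05). Its largest rises were MAGT1, DAD1 and RPN1, at 0.37, 0.28 and 0.24. DAD1 lost its call without Control replicate 1 or siSIRT1 replicate 1 and was at an adjusted p of 0.609 after the length adjustment, and RPN1 lost its call without either Control replicate. After median-of-ratios scaling 1 subunit of the oligosaccharyltransferase was called. Of 22 genes for COPII vesicles and ER exit 7 rose (31.8%) and 0 fell by limma (0 lower at an unadjusted p under 0.05), led by SAR1A at 0.56, SEC24C at 0.49 and SEC24D at 0.35. SEC24D passed under quantile normalization but not under the 3 other scalings, with no filter, with the GC adjustment, or without Control replicate 1, Control replicate 2 or siSIRT1 replicate 2.

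**Figure D5:**
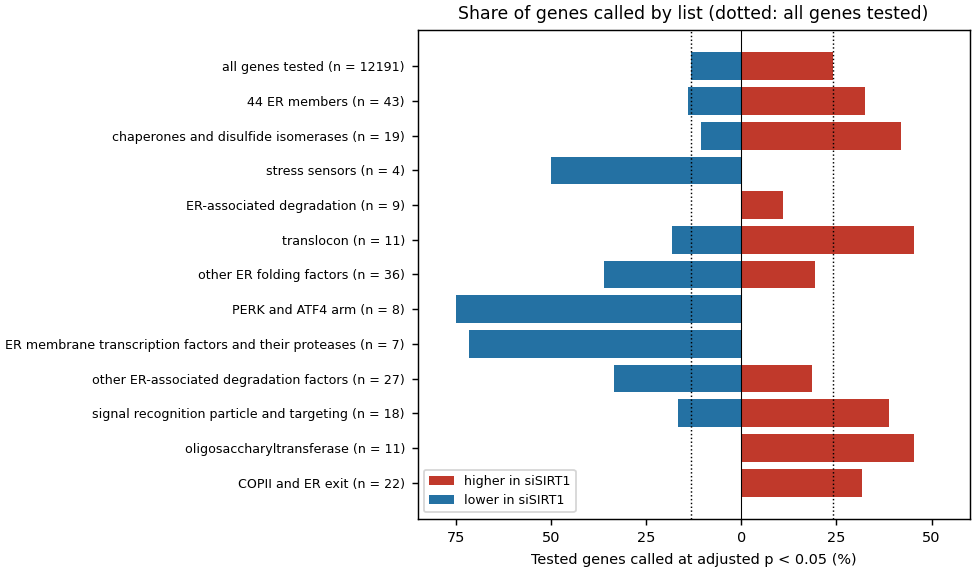
Percent of tested genes called higher (red, to the right) or lower (blue, to the left) in siSIRT1 at an adjusted p under 0.05, for all genes, the 43 tested ER members, their 4 role groups and the 7 other pathway lists, with the number tested in brackets. Dotted lines mark all genes tested, 24.0% higher and 13.1% lower. The PERK and ATF4 arm and the ER membrane factors with their proteases show falls alone, in 6 of 8 and 5 of 7 genes, and the oligosaccharyltransferase and COPII lists show rises alone.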

How the data were processed

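RNA-seq of PANC-1 cells gave 4 libraries, 2 per group, grouped by the sample titles. The labels give no batch or date. Each library has 1 table of FPKM, a unit computed by the authors. The submitters' processing notes name HISAT, Bowtie2 and RSEM (and ChIPseeker) without role or version. The genome build and strand use are not given in the sources used here. FPKM depends on the library total, so strongly changed abundant genes shift all others.

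Identifiers were matched to RefSeq symbols (16846 of 16878). limma 3.58.1 in R 4.3.3 (lmFit, eBayes with a mean-variance trend) was fitted to log2(FPKM + 1) for the 12191 genes averaging 1 FPKM or more, and two-sided p-values were adjusted over all of them (Benjamini-Hochberg, threshold 0.05). Fold changes on this scale understate weak genes. The script was tested on simulated data with 200 changed genes. That simulation gave every gene the same added spread and held no trend with length, so it checks the script and not these calls. Depth was estimated from steps of 1 read in the low values of 60 to 80 single-exon genes per library, with step scores of 0.555 to 0.669 against at most 0.244 for jittered values. Reads per gene are approximate and cover counting error only. Transcript length and GC content came from GENCODE 44 canonical transcripts, and promoters from RefSeq. The members and lists were chosen with earlier results of these data known. The genes named are the 44 members, SIRT1, the markers, and from each other list up to 3 largest rises and 3 largest falls among calls. Alternatives were another pseudocount, no filter, quantile, median-of-ratios, upper-quartile and equal-sum scaling, the replicate number as a block, no trend, each library left out, and adjustments for length and GC content (lowess span 0.3).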

Additional observations from a re-analysis of the deposited data

How the results depend on the processing

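The length and GC adjustments were chosen after seeing the data. The number of ER genes called was 20 and stayed between 17 and 26 under the 10 settings that keep all 4 libraries, and between 11 and 23 with 1 library left out. Over all genes it was 4521, and 2710 to 4582 with 1 library left out, where fewer samples enter the fit and the lone library of a group is assumed to vary like the other group. The replicate number as a block gave 26 ER genes (HSP90B1, CANX, ERP29, EDEM1, SEL1L and SPCS1 in addition) and 5393 genes overall. The deviations of same-numbered libraries correlated at 0.123 across genes. With only 2 pairs this cannot show whether same-numbered libraries share a source, and the labels name none. In ER-associated degradation, limma called 1 gene as reported, 0 under quantile, median-of-ratios, upper-quartile and equal-sum scaling, 3 with the block, 2 with the length or the GC adjustment, and 0 to 3 with 1 library left out. The chaperone group had 10 calls and 6 to 12 with 1 library left out, the sensors 2 and 1 to 2, and the translocon 7 and 4 to 7. For the other lists, the degradation factors fell from 14 calls to 7 with no filter. The oligosaccharyltransferase fell from 5 calls to 3 with no filter, equal sums or the length adjustment, 2 with the GC adjustment, and 1 with median-of-ratios or upper-quartile scaling or no trend. COPII and ER exit fell from 7 calls to 4 with median-of-ratios or upper-quartile scaling or the GC adjustment. With 1 library left out, the ranges were 13 to 21 calls for other folding factors, 3 to 6 for the PERK and ATF4 arm, 6 to 12 for other degradation factors, 5 to 10 for targeting, 1 to 8 for the oligosaccharyltransferase and 3 to 8 for COPII. The log2 fold change of SSR2 went from 0.03 to -0.15 with the length adjustment. The cause was not tested in any of these cases. SIRT1 was lower in every setting. DERL3, with at most about 37 reads, was tested with no filter alone (log2 fold change -0.39, adjusted p 0.409).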

Other observations

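The ratio of a pair of genes within a library does not depend on the scaling between libraries. A trend with transcript length can remain where the transcripts of a pair differ in length, and the ratios were not adjusted for it. The pairs given here were chosen after their values were seen, so the ratios are descriptions with no test. Calreticulin to calnexin (CALR to CANX) went from 3.03 and 2.93 (Control) to 2.23 and 1.77 (siSIRT1). Calreticulin to its isomerase partner (CALR to PDIA3) was 3.15 in both Control libraries and 1.78 and 1.61 in siSIRT1. BiP to MANF (HSPA5 to MANF) went from 6.14 and 5.80 to 2.90 and 3.24, and BiP to GRP94 (HSPA5 to HSP90B1) from 1.43 and 1.34 to 1.03 and 1.09. IRE1 to PERK (ERN1 to EIF2AK3) went from 1.15 and 1.08 (Control) to 0.331 and 0.417 (siSIRT1). Within the TRAP complex SSR1 to SSR3 went from 0.521 and 0.514 to 0.324 and 0.332, and within signal peptidase SPCS3 to SPCS2 went from 0.206 and 0.246 to 0.126 and 0.124. In none of these pairs did the Control and siSIRT1 ratios overlap, but the pairs were chosen with these values known. Among single genes, 69.0% of all tested did not overlap between the groups. SEC61G to SEC61A1, subunits of 1 channel, went from 0.193 and 0.198 (Control) to 0.287 and 0.275 (siSIRT1).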
